A study of Mus musculus with 3 samples.

Results

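The genes described here encode proteins of the growing axon tip and the machinery of polysialic acid: Gap43, Basp1, Marcks, Marcksl1, Ncam1, St8sia2, St8sia4, Cd24a, Nrep and Igfbpl1. They were taken by gene symbol from the deposited expression table, and 10 of 10 were found among its 39377 rows. The tissue was whole hippocampus of C57BL/6 mice of wild-type genotype at postnatal day 14, as mixed cell types, with no treatment named. The samples formed 1 group of 3 RNA-seq libraries of total RNA, here called libraries 1, 2 and 3, so genes were compared inside the same libraries and no condition was compared. Nothing in the labels tells whether separate animals were used for each library. P-values therefore measure only how far these libraries spread, pooled over genes by limma, and that spread may be technical. Values are FPKM (sequenced fragments per kilobase of transcript and per 1000000 fragments mapped), a scale per length, and errors given with ± are SDs (n = 3 libraries).

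A growth cone is the motile tip of an extending axon. Gap43, Basp1 and the Marcks proteins sit on the inner face of its membrane, held there by fatty acids, bind acidic lipids and the actin skeleton, and are substrates of protein kinase C. Polysialic acid is a long sugar chain built on the neural cell adhesion molecule Ncam1 by the Golgi enzymes St8sia2 and St8sia4, and it weakens adhesion between cells. In the hippocampus these genes are known from axon growth, mossy fibre sprouting and newborn granule neurons. Cd24a, Nrep and Igfbpl1 are known from immature neurons, although Cd24a is also expressed by other cell types, ependymal cells and blood cells among them.

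The sequences upstream of the gene are shown for Basp1 and Marcksl1, which were highest in library 1, and for the polysialyltransferase genes, which were highest in library 2 as deposited. They come from RefSeq on GRCm38.p6, from windows of 250 bases before an annotated transcript start, and are written 5′ to 3′ on the strand of the gene. For the transferases that start lies inside the annotated span of the gene, and the 123 bases (St8sia4) and 45 bases (St8sia2) of the window within that span were left out. Shown are chr15:25413765-25414014 on the minus strand for Basp1, chr4:129513331-129513580 on the plus strand for Marcksl1, chr1:95667718-95667844 on the minus strand for St8sia4 and chr7:74013728-74013932 on the minus strand for St8sia2. Capitals mark the letters CANNTG, the E-box bound by basic helix-loop-helix factors, which reads the same pattern on both strands.
Basp1: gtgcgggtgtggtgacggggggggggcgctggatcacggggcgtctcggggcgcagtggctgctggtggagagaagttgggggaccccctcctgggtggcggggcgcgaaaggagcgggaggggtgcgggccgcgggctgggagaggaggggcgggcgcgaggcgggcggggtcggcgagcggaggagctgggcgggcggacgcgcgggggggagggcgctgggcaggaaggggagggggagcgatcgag
Marcksl1: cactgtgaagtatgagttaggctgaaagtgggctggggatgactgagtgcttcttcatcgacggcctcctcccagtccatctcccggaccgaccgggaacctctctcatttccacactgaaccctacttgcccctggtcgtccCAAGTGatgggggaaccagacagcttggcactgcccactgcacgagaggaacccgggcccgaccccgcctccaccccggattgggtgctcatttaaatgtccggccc
St8sia4: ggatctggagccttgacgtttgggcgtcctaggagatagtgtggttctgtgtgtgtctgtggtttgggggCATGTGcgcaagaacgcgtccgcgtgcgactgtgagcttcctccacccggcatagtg
St8sia2: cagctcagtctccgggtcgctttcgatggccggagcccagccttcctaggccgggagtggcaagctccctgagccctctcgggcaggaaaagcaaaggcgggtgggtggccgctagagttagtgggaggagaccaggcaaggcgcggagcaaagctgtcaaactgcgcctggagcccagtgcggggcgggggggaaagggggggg

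An E-box occurred 1 time in the Marcksl1 sequence and 1 time in the 127 bases of St8sia4, and was not found in those of Basp1 and St8sia2. At least 1 was present in 66.2% of 32851 RefSeq windows of 250 bases, and in 43.6% and 59.8% of the same windows cut to the lengths shown for St8sia4 and St8sia2. The GC box, searched as GGGCGG and its reverse complement CCGCCC, occurred 4 times in the Basp1 sequence and 1 time in that of St8sia2, and was not found in those of Marcksl1 and St8sia4. It was present in 32.7% of the full windows, and in 13.7% and 25.6% of those cut as for St8sia4 and St8sia2. No E-box overlapped a GC box in the sequences printed. The TATA box, searched as TATAAA and TTTATA, was found in 0 of the 4 sequences and in 12.4% of the full windows. The Basp1 sequence was 78.8% G and C and held 30 CpG pairs, and 98.3% of the full windows had a lower G and C share. The Marcksl1 sequence held 60.4% G and C, against a median of 52.4% over the full windows, and those of St8sia4 and St8sia2 held 59.1% and 67.8%. These matches describe letters in the windows, and binding was not measured.

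The members covered a wide range of levels in the tissue, with Basp1 at the top and St8sia2 at the bottom. Their median level was 82.4 FPKM, against 10.5 FPKM over the 13337 genes with a mean of at least 1 FPKM, and 10 of 10 members passed that filter. The 4 growth cone membrane genes ranked 154 (Basp1), 287 (Gap43), 309 (Marcksl1) and 1033 (Marcks) by mean level, out of 19046 genes that were not at 0 throughout. Nrep ranked 314, Cd24a 1503, Ncam1 1924 and Igfbpl1 2752. The transferase genes lay far lower, St8sia4 at rank 9037 and St8sia2 at rank 11459.

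**Figure D1:**
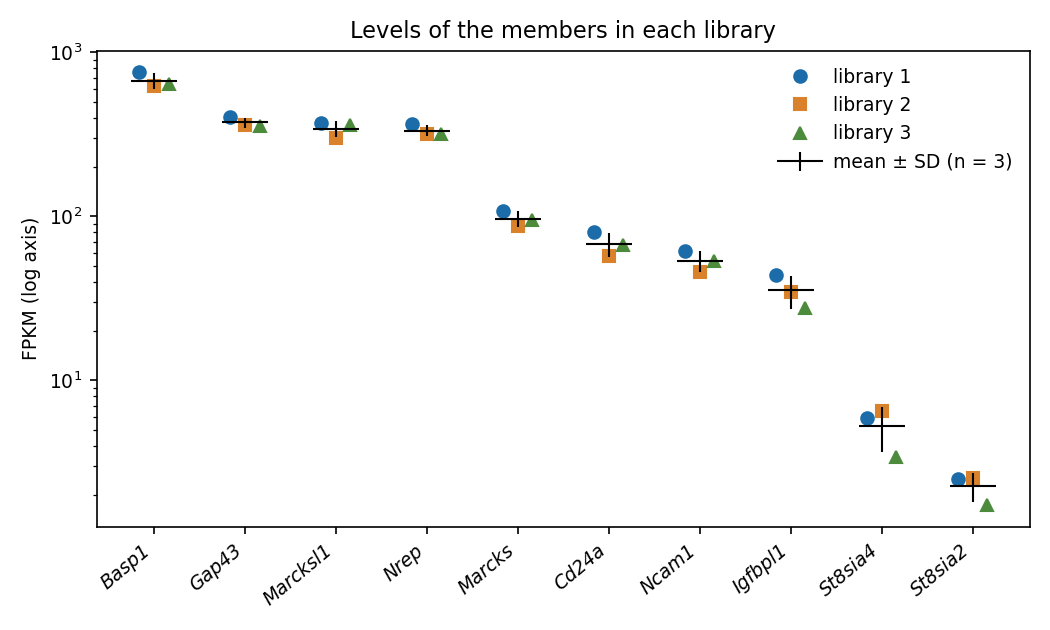
FPKM of the 10 members on a log axis, with 1 symbol per library and bars for the mean ± SD (n = 3). Basp1, Gap43, Marcksl1 and Nrep lie near or above 300 FPKM in every library, and St8sia4 and St8sia2 lie under 10 FPKM.

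Gap43 (Entrez 14432), the neuronal growth-associated protein that binds calmodulin, lies on chromosome 16 from 42248552 to 42340651 in GRCm38.p6. Its level was 403.93, 360.25 and 358.48 FPKM in libraries 1, 2 and 3, with a mean of 374 ± 25.7 FPKM and a coefficient of variation of 6.88%. Library 1 was the highest, and libraries 2 and 3 were nearly equal. About 1728, 1732 and 2500 fragments lay behind these values, so that counting alone gave an error of 2.41%, 2.40% and 2.00%.

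Basp1 (Entrez 70350), the brain acid-soluble protein also known as CAP-23, lies on chromosome 15 from 25363277 to 25413764. It was the highest member, at 756.15, 621.59 and 640 FPKM in libraries 1, 2 and 3 (mean 673 ± 73.0 FPKM). It stood above Gap43 in 3 of 3 libraries, at 1.79 ± 0.0737 times its level. On the scale of log2(FPKM + 1) this was a difference of 0.84 (SE 0.10) to Gap43, which was not called against a null of at most 2-fold (limma, Benjamini-Hochberg adjusted p = 0.939). Against a null of no difference the same value was called (adjusted p = 0.000268), as were 1.65% of all genes in that direction.

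Marcksl1 (Entrez 17357, chromosome 4 from 129513581 to 129515981) and Marcks (Entrez 17118, chromosome 10 from 37133243 to 37138926) encode the pair of related protein kinase C substrates of the Marcks family. Marcksl1 was at 372.71, 299.17 and 359.03 FPKM in libraries 1, 2 and 3 (mean 344 ± 39.1 FPKM). Marcks was at 108.47, 87.52 and 94.51 FPKM (mean 96.8 ± 10.7 FPKM). Marcksl1 exceeded Marcks in 3 of 3 libraries, by 3.44, 3.42 and 3.80 times, and the ranges of both genes did not overlap. The difference of Marcksl1 to Marcks was 1.82 log2 units (SE 0.131) and passed the test against a 2-fold null (limma, adjusted p = 0.000253). Of all 13336 genes tested against Marcks, 3.17% were called higher. Marcksl1 and Gap43 were close, with Marcksl1 at 0.918 ± 0.0856 times Gap43, below it in library 1 and library 2 and level with it in library 3.

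Ncam1 (Entrez 17967), the main carrier of polysialic acid, lies on chromosome 9 from 49502129 to 49799393. Its level was 61.67, 45.82 and 53.14 FPKM in libraries 1, 2 and 3 (mean 53.5 ± 7.93 FPKM), highest in library 1 and lowest in library 2. It has several annotated isoforms, whose shares a single value per gene does not resolve.

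The enzymes that make the chain were measured at low levels. St8sia4 (Entrez 20452, chromosome 1 from 95587682 to 95667717), the polysialyltransferase known to prevail in the adult mouse brain, was at 5.86, 6.49 and 3.43 FPKM in libraries 1, 2 and 3 (mean 5.26 ± 1.62 FPKM). St8sia2 (Entrez 20450, chromosome 7 from 73939119 to 74013727), known to prevail in the embryonic brain, was at 2.52, 2.55 and 1.74 FPKM (mean 2.27 ± 0.459 FPKM). Both were lowest in library 3, and the lowest St8sia4 value lay above the highest St8sia2 value. The ratio of St8sia4 to St8sia2 was 2.33, 2.55 and 1.97 in libraries 1, 2 and 3, a mean of 2.28 ± 0.290. On the scale of log2(FPKM + 1) the difference of St8sia4 to St8sia2 was 0.91 (SE 0.228), which was not called against a 2-fold null (limma, adjusted p = 0.956). It was called against a null of no difference (limma, adjusted p = 9.78e-05, where 77.0% of all genes were called higher). With St8sia4 as the gene subtracted, the same pair had an SE of 0.301 and a larger adjusted p of 0.00392 under that null. Against St8sia2, 57.4% of all 13336 genes were called higher by more than 2-fold, and 0 were called lower by limma, also at an unadjusted p under 0.05. That 0 says little, because the 1 FPKM filter and the added 1 left scant room for a 2-fold difference below St8sia2.

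Depth limits what the transferase values can show. Depending on which annotated protein-coding transcript was counted, St8sia4 rested on about 114 to 218, 137 to 261 and 105 to 200 fragments in libraries 1, 2 and 3, for a counting error of 6.19% to 9.76%. For St8sia2 the longest transcript gives about 49, 54 and 53 fragments and a counting error of 13.7% to 14.3%, and the shortest transcript only 5 to 6 fragments. These errors are for counting only, because reads that carry no molecular identifier need not come from different molecules. Ncam1 exceeded St8sia4 by 10.5, 7.06 and 15.5 times and St8sia2 by 24.5, 18.0 and 30.5 times in libraries 1, 2 and 3, in each case most in library 3. The difference of Ncam1 to St8sia4 was 3.15 log2 units (SE 0.301, limma adjusted p = 3.60e-12), in a fit where 35.2% of all genes were called higher than St8sia4. It was 3.19, 2.64 and 3.61 log2 units in libraries 1, 2 and 3. All genes of this fit share the 3 St8sia4 values, and pooling over them makes the p-value smaller than these 3 differences alone would.

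Nrep (Entrez 27528), the small neuronal regeneration-related protein P311, lies on chromosome 18 from 33437019 to 33464365. Its level was 364.46, 318.41 and 318.69 FPKM in libraries 1, 2 and 3 (mean 334 ± 26.5 FPKM). Its ratio to Gap43 was 0.902, 0.884 and 0.889 in the same libraries. That ratio had an SD of 0.00951, the smallest of the 3 ratios to Gap43 formed for Basp1, Marcksl1 and Nrep.

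Cd24a (Entrez 12484), a small sialoglycoprotein anchored in the outer membrane by a lipid, lies on chromosome 10 from 43579169 to 43584265. It was at 79.97, 57.09 and 67.06 FPKM in libraries 1, 2 and 3 (mean 68.0 ± 11.5 FPKM). Ncam1, Basp1, Marcksl1, Marcks and Nrep had the same order of libraries. Cd24a was 1.27 ± 0.0260 times Ncam1, and higher in 3 of 3 libraries.

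Igfbpl1 (Entrez 75426), a secreted protein related to the insulin-like growth factor binding proteins, lies on chromosome 4 from 45809507 to 45826827. Its level was 43.99, 34.63 and 27.78 FPKM in libraries 1, 2 and 3 (mean 35.5 ± 8.14 FPKM), a ratio of 1.58 between the highest and the lowest library. Dcx, which encodes the microtubule protein doublecortin of young migrating neurons, had the same order of libraries at 14.88, 11.51 and 9.71 FPKM. The ratio of Igfbpl1 to Dcx was 2.96, 3.01 and 2.86.

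Relative to Gap43, 6 of the 9 other members were lower by more than 2-fold, and Basp1, Marcksl1 and Nrep were not called (limma against a 2-fold null, adjusted over all genes). Of all 13336 genes tested, 95.2% were called lower than Gap43 and 0.652% higher, so the count of lower members by itself does not set them apart. No member was called higher than Gap43 by limma, and 0 had an unadjusted p under 0.05 in that direction. Marcks was the closest of the called members, at -1.94 log2 units (SE 0.101, adjusted p = 8.52e-05), followed by Cd24a at -2.45 (SE 0.113) and Ncam1 at -2.79 (SE 0.109). Igfbpl1 was at -3.38 (SE 0.129), St8sia4 at -5.94 (SE 0.165) and St8sia2 at -6.85 (SE 0.117), each lower in 3 of 3 libraries.

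**Figure D2:**
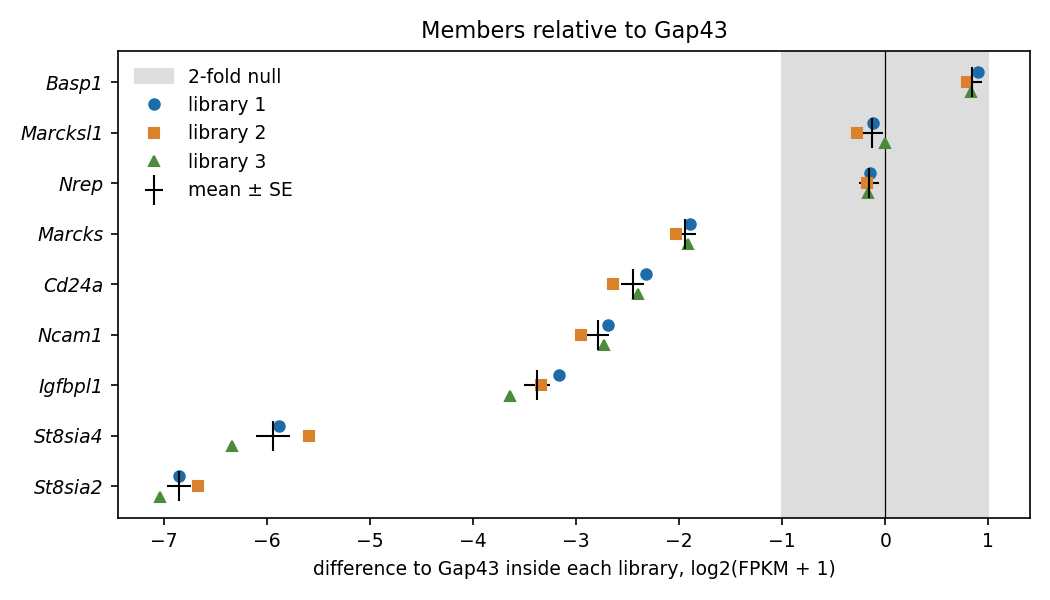
Difference of each member to Gap43 inside the same library, on the scale of log2(FPKM + 1), with 1 symbol per library, the mean ± SE, and the 2-fold null in grey. Basp1, Marcksl1 and Nrep lie within the null, and the other 6 members lie below it in each library.

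The order of the 10 levels was the same in the 3 libraries except for Gap43, Marcksl1 and Nrep. Gap43 came next after Basp1 in libraries 1 and 2, and in library 3 Marcksl1 (359.03 FPKM) stood just above it. Among the 9 pairs of neighbours in the order of means, 2 were called as differing by more than 2-fold on the scale of log2(FPKM + 1); summed over the same 9 fits, 73.0% of all genes were called lower. The called pairs were Marcks below Nrep (-1.78 log2 units, SE 0.105, limma adjusted p = 0.00023) and St8sia4 below Igfbpl1 (-2.55, SE 0.267, adjusted p = 8.33e-09). The difference of St8sia4 to Igfbpl1 was -2.71, -2.25 and -2.70 in libraries 1, 2 and 3, and its small p-value rests on pooling over genes. St8sia4 and St8sia2, 2.28 times apart in FPKM, were not called on that scale, which understates differences of low genes. With a pseudocount of 0.1 the difference of St8sia4 to St8sia2 was 1.15 log2 units and was not called either (limma adjusted p = 0.479). In the fits of the called pairs, 94.6% of all genes were called lower than Nrep and 53.6% lower than Igfbpl1. Against a null of no difference 6 pairs were called, beside 81.9% of all genes, and the pairs not called were Marcksl1 and Gap43 (adjusted p = 0.293), Nrep and Marcksl1 (adjusted p = 0.806) and Ncam1 and Cd24a (adjusted p = 0.169). For the last pair the fit took its SE of 0.240 largely from the spread of all genes against Cd24a, whereas the difference of Ncam1 to Cd24a itself ranged only from -0.37 to -0.31 over the libraries.

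The genes nearest to Gap43 over the 3 libraries, by Euclidean distance of log2(FPKM + 1), were Sub1 (distance 0.0531), Btf3 (0.0729) and Morf4l1 (0.0845). They were at 390.87, 354.27 and 358.74 FPKM (Sub1), 409.39, 376.76 and 351.59 FPKM (Btf3) and 405.22, 377.96 and 346.61 FPKM (Morf4l1) in libraries 1, 2 and 3. With 3 libraries of 1 tissue this measure finds mainly genes of the same level. Nrep and Marcksl1 were the nearest members, at positions 42 and 45, and Basp1 was at position 326.

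Other growth cone genes were described from a list of 23, of which 22 were tested against Gap43. In this list 14 passed as lower, 3 as higher, each by more than 2-fold, and 5 did not pass, beside 95.2% lower and 0.652% higher over all genes. The 3 higher genes were those of calmodulin and a calmodulin binder: Calm2 at 2456 ± 138 FPKM, Nrgn, the neurogranin gene of dendrites, at 1099 ± 15.8 FPKM, and Calm3 at 935 ± 43.6 FPKM. Their differences to Gap43 were 2.71 (SE 0.101), 1.55 (SE 0.104) and 1.32 log2 units (SE 0.105; limma adjusted p = 0.0135). The call of Calm3 was lost without replicate 3 (adjusted p = 0.0703). The lowest tested gene, Cntn2, a contactin of axons, was at 6.89, 3.64 and 7.93 FPKM in libraries 1, 2 and 3. Prkcb, a protein kinase C gene at 145 ± 20.3 FPKM, was called lower (-1.37 log2 units, SE 0.138, adjusted p = 0.0206), and this call was lost without replicate 1 (adjusted p = 0.0759) or replicate 2 (adjusted p = 0.0575). Siglecg, which encodes a receptor of Cd24, was listed at 0, 0 and 0.07 FPKM and was not tested. Cntn2, Prkcb and Siglecg were chosen after their values were seen. Values of the calmodulin genes are uncertain to the extent that similar copies share reads.

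The polysialic acid list held 16 further genes, of which 13 were tested against St8sia4. In it 3 were higher by more than 2-fold, 0 were lower and 10 were not called, beside 35.2% higher and 0.81% lower over all genes. At an unadjusted p under 0.05 the numbers were 5 higher and 0 lower. The higher genes were Cmas, which activates sialic acid by coupling it to CMP, at 70.1 ± 1.29 FPKM, Cadm1, an adhesion molecule that can also carry polysialic acid, at 63.9 ± 7.55 FPKM, and the sialyltransferase gene St8sia3 at 29.0 ± 3.81 FPKM. St8sia3 was 5.89 ± 1.91 times St8sia4 (limma difference 2.29 log2 units, SE 0.301, adjusted p = 4.00e-05). St8sia5, a sialyltransferase of gangliosides, was at 17.6 ± 0.769 FPKM and was not called (1.61 log2 units, SE 0.301, adjusted p = 0.0591). It passed when genes were filtered at a mean of 5 FPKM (adjusted p = 0.0338) or not filtered (adjusted p = 0.0376). In this fit every SE of the 13 genes was 0.301, so limma used the spread pooled over genes and not that of each gene. Differences to St8sia4 also shared the spread of St8sia4 itself, whose 3 values ranged 1.89-fold.

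Of the 10 members, 8 had their highest value in library 1 and 2, St8sia2 and St8sia4, in library 2. None was highest in library 3. Over all 13337 genes with a mean of at least 1 FPKM, 36.5% were highest in library 1, 32.6% in library 2 and 30.9% in library 3, and the share for library 1 was 36.6% among genes from 1 to 10 FPKM, 37.9% from 10 to 100 FPKM and 29.3% from 100 to 1000 FPKM. With 3 libraries of 1 group this is a description and was not tested. The margin was uneven: St8sia2 was at 2.52 FPKM in library 1 and 2.55 FPKM in library 2, and when libraries were scaled to an equal FPKM sum it was highest in library 1. That made 9 of 10 members, beside 42.8% of all genes highest in library 1 under the same scaling. Marcksl1 differed little between library 1 (372.71 FPKM) and library 3 (359.03 FPKM).

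The size of the excess in library 1 was moderate. The ratio of library 1 to the mean of the other 2 libraries had a median of 1.19 over the members and 1.01 over all genes with a mean of at least 1 FPKM. It was 1.41 for Igfbpl1, 1.29 for Cd24a, 1.25 for Ncam1, 1.20 for Basp1, 1.19 for Marcks, 1.14 for Nrep, 1.13 for Marcksl1 and 1.12 for Gap43. The lowest library was library 2 for 6 members and library 3 for 4 (Gap43, Igfbpl1, St8sia4 and St8sia2), while 33.2% and 33.8% of all genes were lowest in those libraries. As deviations from the mean of the 3 libraries on the log2 scale, the members had medians of 0.168, -0.087 and -0.062 in libraries 1, 2 and 3, and all genes medians of 0.011, -0.001 and -0.006.

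**Figure D3:**
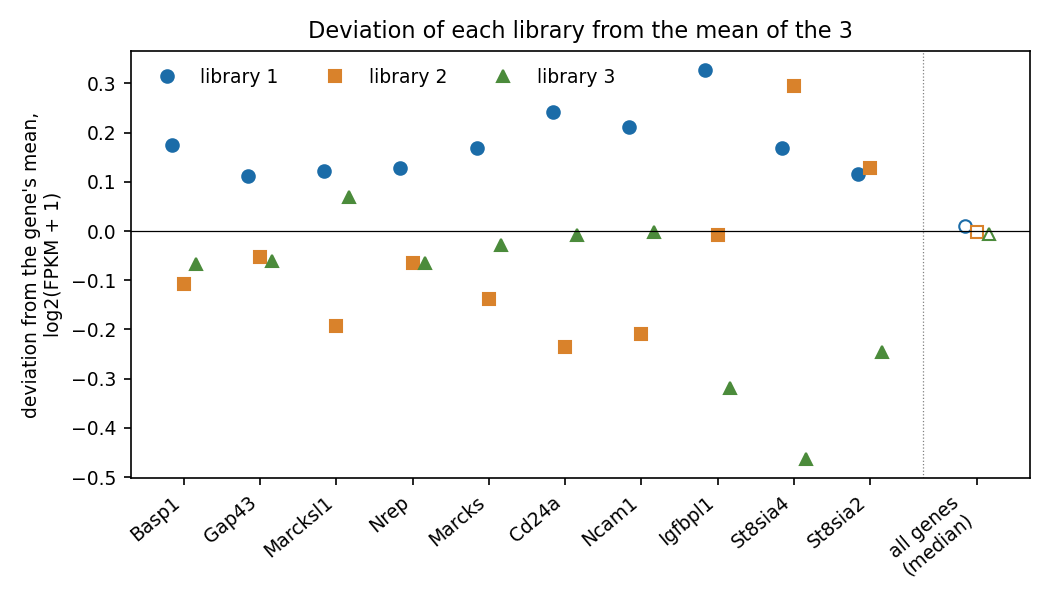
Deviation of each library from the mean of the 3 libraries, on the scale of log2(FPKM + 1), for each member and, as open symbols, the median over all genes with a mean of at least 1 FPKM. Library 1 lies above 0 for 10 of 10 members, and library 3 lies lowest for St8sia4 at -0.463.

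The median coefficient of variation of the members was 13.1%, against 13.8% over all genes with a mean of at least 1 FPKM. These are unlike levels, since the members had a median of 82.4 FPKM and all those genes 10.5 FPKM. The median coefficient was 10.7% for genes from 10 to 100 FPKM and 7.83% from 100 to 1000 FPKM. Beside these, Basp1 (10.8%), Marcksl1 (11.4%), Cd24a (16.9%) and Ncam1 (14.8%) lay above genes of like level, Nrep near them and Gap43 below. Gap43 (6.88%) and Nrep (7.94%) varied least, with 19.3% and 24.1% of all genes below them. St8sia4 varied most, at 30.7%, with 83.4% of all genes below it, while the median of the 6520 genes from 1 to 10 FPKM was 20.7%. Igfbpl1 followed at 22.9%, against 10.7% for genes from 10 to 100 FPKM.

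Marker genes of cell types moved between the same libraries. All 6 immature neuron markers were highest in library 1, a pattern known from these data when the members were chosen and no independent support. Besides Dcx, Neurod1, a proneural factor of the granule lineage, was at 29.27, 16.35 and 15.07 FPKM, Sox11 at 5.47, 4.25 and 4.02 FPKM, and Sox4 at 13.35, 10.97 and 10.98 FPKM. The cytoskeletal genes Tubb3 (339.92, 254.80 and 325.90 FPKM) and Stmn1 (741.26, 694.25 and 732.06 FPKM) differed little between libraries 1 and 3. Mature neuron markers were highest in library 1 for 3 of 6 genes, with summed levels of 1640, 1516 and 1505 FPKM in libraries 1, 2 and 3.

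The summed markers of glial, vascular, dividing and choroid plexus cells were lowest in library 1. The sums in libraries 1, 2 and 3 were 1441, 1785 and 1703 FPKM for 6 astrocyte genes, 924, 950.5 and 1052 FPKM for 6 oligodendrocyte lineage genes, 185, 211 and 202 FPKM for 6 microglia genes, and 158, 175 and 175 FPKM for 6 vascular genes. Single genes did not all follow, since 1 of 6 astrocyte, 1 of 6 microglia and 2 of 6 vascular genes, and 0 of 6 oligodendrocyte lineage genes, were highest in library 1. None of 6 dividing cell genes was highest in library 1, where their sum was 13.1 FPKM, against 22.9 and 20.7 FPKM in libraries 2 and 3. In this list Cdk1 was at 5.52, 13.10 and 10.08 FPKM, Ccnb1 at 0.96, 2.15 and 3.22 FPKM, Top2a at 2.54, 3.06 and 2.84 FPKM, Mcm2 at 2.09, 2.14 and 2.37 FPKM, Eomes at 1.26, 1.74 and 1.16 FPKM and Mki67 at 0.77, 0.73 and 1.05 FPKM. Choroid plexus genes, from a tissue that lies against the hippocampus, summed to 398 FPKM in library 1 and to 1086 and 1311 FPKM in libraries 2 and 3, with none of 6 highest in library 1. Nearly all of that sum was Ttr, the transthyretin gene, at 391.81, 1070.95 and 1295.71 FPKM in libraries 1, 2 and 3. The choroid plexus gene Kcnj13 was listed at 0 in library 1. The 5 blood genes summed to 952, 1063 and 885 FPKM, lowest in library 3, and the 6 thalamus and cortex genes to a nearly level 25.1, 26.2 and 26.5 FPKM.

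The part of these markers in the library order of the members was not tested. In bulk tissue, more cells of a type and more RNA per cell cannot be told apart. In the polysialic acid list 12 of 16 genes were counted as highest in library 1, among them St8sia1, tied at 3.44 FPKM in libraries 1 and 3. No gene of that list was highest in library 3 alone. In the growth cone list 10 of 23 genes were highest in library 1 and 11 in library 3. Over all genes with a mean of at least 1 FPKM these shares were 36.5% and 30.9%. Of those genes 39 were tied, and a tie was counted for the library of lower number. Library 3 also stood apart in Bc1, a short neuronal noncoding RNA listed at 124074.1, 179412.24 and 0 FPKM in libraries 1, 2 and 3. Whether that difference bears on the members was not tested, and Bc1, Ttr and Kcnj13 were chosen after their values were seen.

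**Figure D4:**
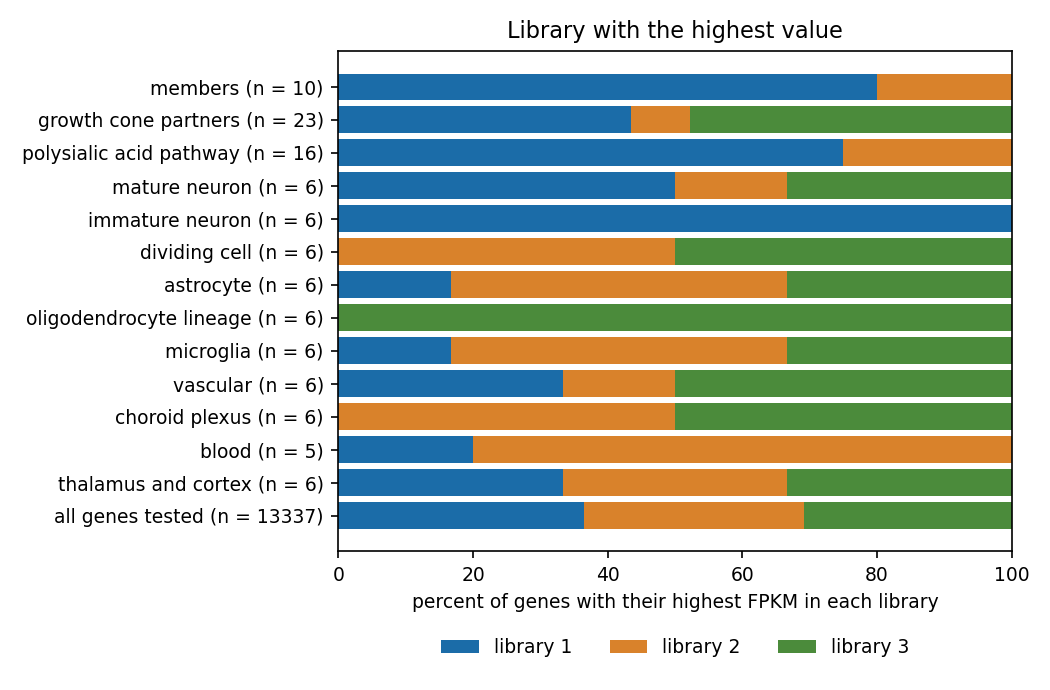
Percent of genes with their highest FPKM in library 1, 2 or 3, for the 10 members, the pathway and marker lists, and all 13337 genes with a mean of at least 1 FPKM. A tie is counted for the library of lower number. Library 1 holds the highest value of 8 of 10 members and 6 of 6 immature neuron genes, against 36.5% of all genes.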

How the data were processed

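The authors deposited FPKM values in 1 table, a column for each library, per the file headers, made from paired-end reads of 150 bases, per the labels' protocols. Bowtie2 and the builds GRCm38 and mm10 are named in the submitters' processing notes. Which counting tool, annotation and strand setting they used is not given in the sources used here, so values of genes with similar copies or overlapping neighbours are uncertain. The number in each title tied its sample to a column.

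FPKM were used as deposited and compared as log2(FPKM + 1), which understates differences of low genes. Inside each library, the level of a given member was subtracted from that of every gene that averaged 1 FPKM or more. The differences were tested with the treat function of limma 3.58.1 (R 4.3.3) against a null of up to 1 log2 unit. P-values were adjusted by the Benjamini-Hochberg method over the 13336 genes of a fit and called at 0.05. The null allows 2-fold because transcript length, GC content and mappability also set FPKM apart between genes. All genes of a fit share the spread of that member, so the genes pooled by limma are not independent and very small p-values overstate the certainty. The test was checked on simulated data. Library order was described without a test.

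Depth was estimated from the steps of low FPKM values of genes with 1 annotated GENCODE M21 transcript of at least 800 bases, as about 3820000, 4110000 and 5960000 fragments in libraries 1, 2 and 3. Values of at most 4 fragments were whole to within 0.15 for 93.0%, 92.4% and 91.3% of them, against 30% if spread evenly, both settings being fitted on these values. A level of 3 fragments on a 2 kb transcript is 0.462, 0.417 and 0.288 FPKM.

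Members and lists were chosen with earlier results of these data known. Named are all members, the 4 highest genes of each pathway list and those called higher, the 3 genes nearest to Gap43, and the immature neuron and dividing cell markers. The values of 1 gene under this rule are not reported here. Promoter windows of 4 members from RefSeq were used, and windows on chromosome 18, where Nrep lies, were left out. Python 3.11.15, numpy 2.4.6, pandas 2.3.3 and matplotlib 3.10.9 were used.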

Additional observations from a re-analysis of the deposited data

How the results depend on the processing

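Of 93 recomputed values, 87 kept their direction, their side of the threshold or a count within 1.5 times. The alternatives were a pseudocount of 0.1, no filter, a mean of at least 5 FPKM, a null of no difference, a trended prior variance, 2 other scalings of the libraries and leaving out each replicate. Scaling a library cancels in differences taken inside it, apart from the added 1. The 2 other scalings could therefore hardly change the tests, and their values count little among the 87. A null of no difference made the test less strict by construction. Under it 1 member (Basp1) and 5 growth cone genes were higher than Gap43, beside 1.65% of all genes. In the same setting 6 neighbouring pairs differed, beside 81.9% of all genes called lower in those fits. Against St8sia4, 10 polysialic acid genes were higher. The share of all genes for that count is not given here, so it does not set the list apart. The difference of 0.91 log2 units of St8sia4 to St8sia2 was also called (limma adjusted p = 9.78e-05, or 0.00392 with St8sia4 as the gene subtracted). Without a filter, 3 polysialic acid genes were lower than St8sia4, since 3 genes under 1 FPKM were then tested. Leaving out 1 replicate changed the calls of Calm3 and Prkcb and of no member. No paired analysis was possible because the series has 1 group, so no replicate number is shared between groups; every test already compared genes inside each library. Low fragment numbers limit St8sia2 most.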
